A study of Mus musculus with 12 samples.

Results

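A set of 9 genes of pancreatic duct and mucosal epithelium was followed in mouse islets. They were the keratins *Krt7*, *Krt8*, *Krt18* and *Krt19*, the mucosal genes *Tff2* and *Muc1*, the duct factor *Sox9*, the secreted protein *Spp1* and the chloride channel *Cftr*. Each gene was read from the probe set whose symbol in the array annotation was that gene alone. Such a probe set existed for 8 of the 9 genes, 1 for each, out of 19938 genes represented in this way. No probe set was named for *Spp1* alone, so *Spp1* (osteopontin) has no value here. The tissue was islets isolated with collagenase from adult female mice of the 129Sv background. In *Prlr*-/- mice the prolactin receptor gene was knocked out in the whole body, and the controls were *Prlr*+/+ mice. Each genotype was studied in the non-pregnant state (NP) and on pregnancy day 9.5 (P9.5), with 3 biological replicates, hence 3 arrays, in each of the 4 groups. The pregnant *Prlr*-/- mice had received a progesterone pellet, which the methods describe for this genotype only, so that genotype and pellet cannot be told apart at P9.5. Whether an array held the islets of 1 mouse or several was not given in the sources used here.

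Keratins are the intermediate filament proteins of epithelial cells. A type II keratin pairs with a type I keratin in each filament: *Krt7* and *Krt8* encode type II proteins, and *Krt18* and *Krt19* type I proteins. KRT8 and KRT18 form the filaments of simple epithelia and are also made in acinar and endocrine cells of the pancreas, whereas KRT7 and KRT19 are used as duct stains. TFF2 is a small trefoil peptide secreted with mucus, MUC1 is a mucin that stays anchored in the apical membrane, SOX9 is a transcription factor of duct and progenitor cells, and CFTR is the channel that drives bicarbonate and fluid secretion by ducts. Isolated islets carry some duct and acinar tissue with them. In such bulk samples fewer cells of a type and less RNA per cell cannot be told apart.

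*Krt8* and *Krt18* lie next to each other on chromosome 15, with 0 protein-coding genes between them and opposite orientation. *Krt7* lies on the same chromosome, with 23 protein-coding genes, 22 of them keratins, between it and *Krt8*. The 250 bases upstream of these 3 genes are shown because the genes, although clustered, differed in the direction of their values in pregnancy. The sequences are from RefSeq (build GRCm38.p6, the C57BL/6J reference and not 129Sv), read 5′ to 3′ on the strand of the gene. Capitals mark the GC box GGGCGG or its reverse complement.

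Krt7, chr15:101412153-101412402, plus strand: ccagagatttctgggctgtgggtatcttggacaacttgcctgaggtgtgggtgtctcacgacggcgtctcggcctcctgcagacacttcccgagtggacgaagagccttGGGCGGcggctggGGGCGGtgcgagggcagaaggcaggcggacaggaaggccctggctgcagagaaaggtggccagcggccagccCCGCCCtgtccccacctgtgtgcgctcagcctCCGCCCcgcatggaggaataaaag

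Krt8, chr15:102004343-102004592, minus strand: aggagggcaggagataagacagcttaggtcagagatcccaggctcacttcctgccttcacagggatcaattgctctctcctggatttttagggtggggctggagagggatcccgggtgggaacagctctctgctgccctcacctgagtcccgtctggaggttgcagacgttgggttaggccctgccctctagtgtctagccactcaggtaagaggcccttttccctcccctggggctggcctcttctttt

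Krt18, chr15:102027966-102028215, plus strand: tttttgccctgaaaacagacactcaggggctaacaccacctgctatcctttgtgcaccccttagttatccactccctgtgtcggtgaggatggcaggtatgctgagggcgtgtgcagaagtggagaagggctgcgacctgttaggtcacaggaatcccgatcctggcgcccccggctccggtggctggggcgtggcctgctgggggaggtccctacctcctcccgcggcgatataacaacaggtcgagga

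The *Krt7* window held 4 GC boxes, whose first bases lay 141, 128, 56 and 24 bases before the start, while the windows of *Krt8* and *Krt18* held none. GGGCGG occurred in 32.7% of the 32851 windows of this length in the RefSeq promoter table. TATAAA, TTCNNNGAA (the letters bound by STAT factors) and TGANTCA (AP-1), searched on both strands, were not in any of the 3 windows. They occurred in 12.4%, 7.02% and 6.75% of all windows. The *Muc1* window held TATAAA 31 bases before the start and 2 GC boxes, and the *Cftr* window held 6 GC boxes. These are letter matches only.

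Values are log2 expression from robust multichip analysis (RMA), in steps of 0.1. A difference of 1.00 is a 2-fold change, and levels of different probe sets are not on a common scale. A gene was called lower or higher when its fold change was at least 1.5 (0.58 on the log2 scale) and its adjusted p-value was under 0.05 in limma, adjusted over all 35511 probe sets. Array medians were 5.7 to 5.9. Arrays of the same stage correlated with r of 0.972 to 0.988, and arrays of different stages with r of 0.931 to 0.969. One array stood apart in a sex-linked gene. *Xist*, expressed from the inactive X chromosome, was at 3.8 in *Prlr*+/+ P9.5 replicate 2 and at 10.5 and 10.7 in the other two arrays of its group, and averaged 10.10 to 10.50 in the other groups. The Y-linked *Kdm5d*, *Uty* and *Eif2s3y* were not raised in that array (4.2, 3.7 and 3.4, within the 3.1 to 4.6 of all arrays). Pregnancy changes of the members in *Prlr*+/+ islets are given with and without it, and those of the pathway lists where leaving it out altered a call. The annotation used here names no probe set for *Prlr*, so the targeted gene was not checked here.

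The members called at P9.5 were not the same in the 2 genotypes, although no difference between the genotypes was itself called. In *Prlr*+/+ islets *Krt7* and *Krt8* were called lower at P9.5, by 1.74-fold and 1.52-fold. Those called lower in *Prlr*-/- islets were *Tff2* and *Muc1*, by 2.41-fold and 1.87-fold. No member was called higher in either genotype, and 0 members were called lower in both. Of all probe sets, 4.21% were called lower in *Prlr*+/+ islets, 7.09% in *Prlr*-/- islets, 2.75% in both and 5.80% in exactly one genotype; 5.73% and 7.44% were called higher in the respective genotypes. By the weaker criterion that all 3 P9.5 arrays lay below all 3 NP arrays, *Krt8* and *Muc1* were lower in both genotypes, as were 10.1% of all probe sets. By the same criterion *Krt18* was higher in both genotypes, as were 10.8%. Counted within 1 genotype, 4 of the 8 genes (*Krt7*, *Krt8*, *Muc1* and *Cftr*) were lower without overlap in *Prlr*+/+ islets and 2 (*Krt8* and *Muc1*) in *Prlr*-/- islets, beside 17.3% and 22.4% of all probe sets. *Krt18* was the 1 gene higher without overlap in each, beside 15.0% in *Prlr*+/+ and 19.4% in *Prlr*-/- islets. The median log2 change of the 8 genes was -0.33 in *Prlr*+/+ islets and -0.27 in *Prlr*-/- islets, against -0.07 over all probe sets in each. The change was below 0 for 7 of the 8 genes in each genotype, and *Krt18* was the exception in both.

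**Figure D1:**
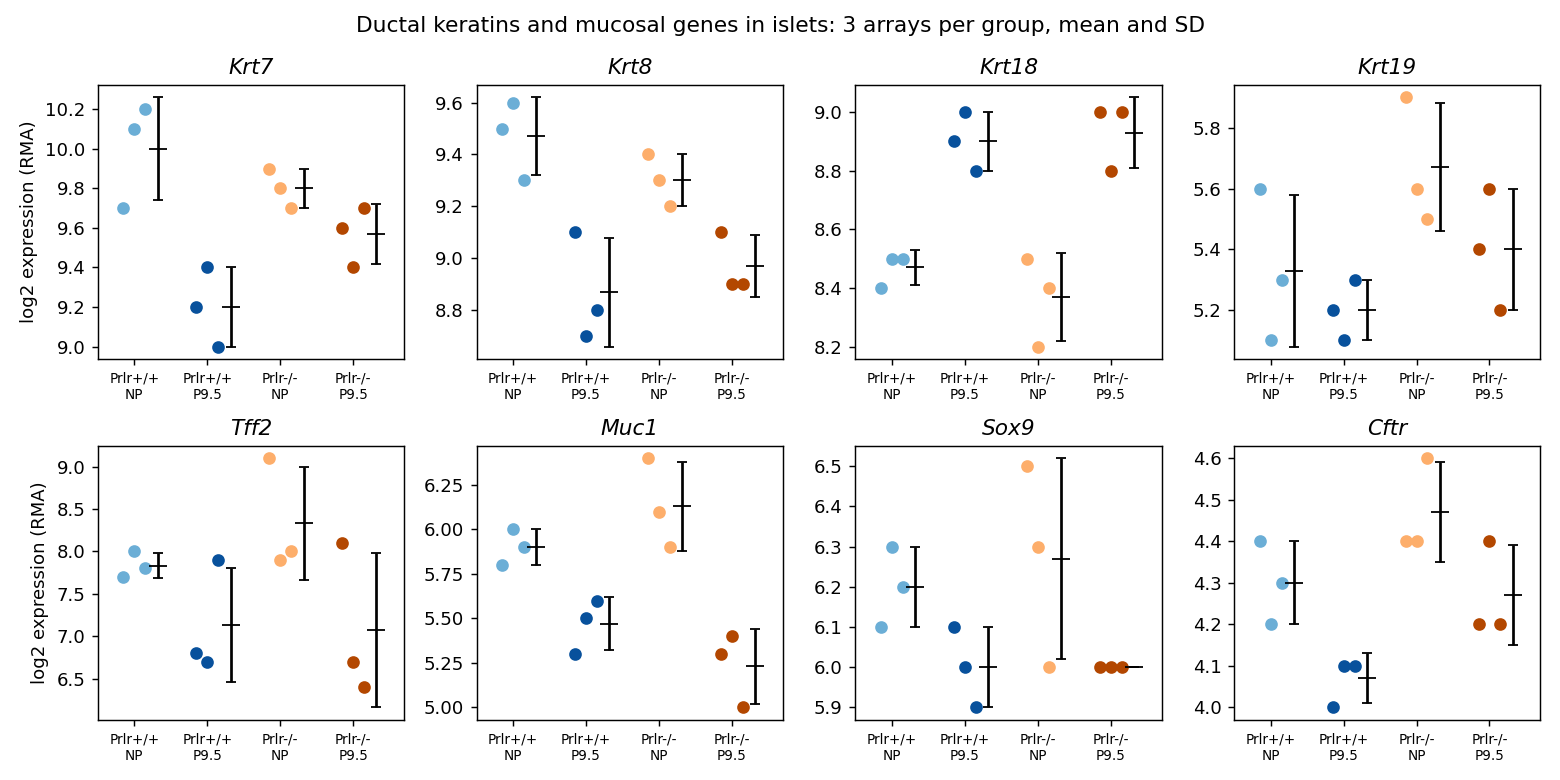
Log2 expression (RMA, vertical axis, a separate scale for each gene) of the 8 genes in the 4 groups. Coloured points are the 3 arrays of a group and the black bar is their mean with SD; the P9.5 points of *Krt8* and *Muc1* lie below, and those of *Krt18* above, the NP points in both genotypes.

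*Krt7* had the largest fall among the keratins. In *Prlr*+/+ islets it measured 9.7, 10.1 and 10.2 in NP arrays and 9.2, 9.4 and 9.0 at P9.5. The 2 groups did not overlap, and the difference was -0.80 (SE 0.147, 95% confidence interval -1.12 to -0.48, adjusted p = 0.00335). The *Prlr*-/- values were 9.9, 9.8 and 9.7 in NP arrays and 9.6, 9.4 and 9.7 at P9.5. These groups shared the value 9.7, and the difference was -0.23 (interval -0.56 to 0.09, adjusted p = 0.238). At P9.5 *Krt7* was thus 0.37 higher on the log2 scale in *Prlr*-/- than in *Prlr*+/+ islets, the groups sharing the value 9.4 (adjusted p = 0.818). The change in *Prlr*-/- islets minus that in *Prlr*+/+ islets was 0.57 (interval 0.11 to 1.02), and this interaction had an adjusted p of 0.404 (0.67 and 0.296 without the low-*Xist* array). A difference between the genotypes in the response of *Krt7* was therefore not called. Without *Prlr*+/+ P9.5 replicate 2 the change in *Prlr*+/+ islets was -0.90 (adjusted p = 0.00618).

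*Krt8*, the other type II member, measured 9.5, 9.6 and 9.3 in *Prlr*+/+ NP arrays and 9.1, 8.7 and 8.8 at P9.5. The *Prlr*-/- values were 9.4, 9.3 and 9.2 in NP arrays and 9.1, 8.9 and 8.9 at P9.5. The P9.5 values were the lower ones in both genotypes, without overlap. The difference was -0.60 (SE 0.125, interval -0.87 to -0.33, adjusted p = 0.00607) in *Prlr*+/+ islets and -0.33 (interval -0.61 to -0.06, adjusted p = 0.058) in *Prlr*-/- islets. The first lay just past the minimum fold change. RefSeq also lists a *Krt8* pseudogene, and whether its RNA adds to the probe set was not tested. Without *Prlr*+/+ P9.5 replicate 2 it was -0.52 (adjusted p = 0.0285) and was no longer called, which left *Krt7* as the 1 member called in *Prlr*+/+ islets. It was also not called without *Prlr*+/+ NP replicate 1, NP replicate 2 or P9.5 replicate 3, where it was -0.58, -0.53 and -0.57.

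*Krt18*, the type I partner of *Krt8*, moved the other way. It measured 8.4, 8.5 and 8.5 in *Prlr*+/+ NP arrays and 8.9, 9.0 and 8.8 at P9.5. Those in *Prlr*-/- islets were 8.5, 8.2 and 8.4 in NP arrays and 9.0, 8.8 and 9.0 at P9.5. All P9.5 values lay above all NP values. The difference was 0.43 (SE 0.104, interval 0.20 to 0.66, adjusted p = 0.0127) in *Prlr*+/+ islets and 0.57 (interval 0.34 to 0.80, adjusted p = 0.00216) in *Prlr*-/- islets. Both passed the p threshold and stayed under the minimum fold change, at 1.35-fold and 1.48-fold. In *Prlr*-/- islets *Krt18* was called higher with array weights and when the arrays were centred on their medians (0.73). It was also called there when NP replicate 1 or P9.5 replicate 2 of that genotype was left out (0.63 each). Without *Prlr*+/+ P9.5 replicate 2 the difference in *Prlr*+/+ islets was 0.38 (adjusted p = 0.0521).

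The value of *Krt18* minus that of *Krt8* within an array shows the unequal change of the pair. Its level depends on the 2 probe sets, and only its change between groups can be read. It was -1.1, -1.1 and -0.8 in *Prlr*+/+ NP arrays and -0.2, 0.3 and 0.0 at P9.5, a mean change of 1.03. In *Prlr*-/- islets it was -0.9, -1.1 and -0.8 in NP arrays and -0.1, -0.1 and 0.1 at P9.5, a mean change of 0.90. The NP and P9.5 arrays were separated in both genotypes, and shifting a whole array up or down does not alter this quantity. As it was formed after the opposite directions of the pair had been seen, it is given as a description without a test.

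**Figure D2:**
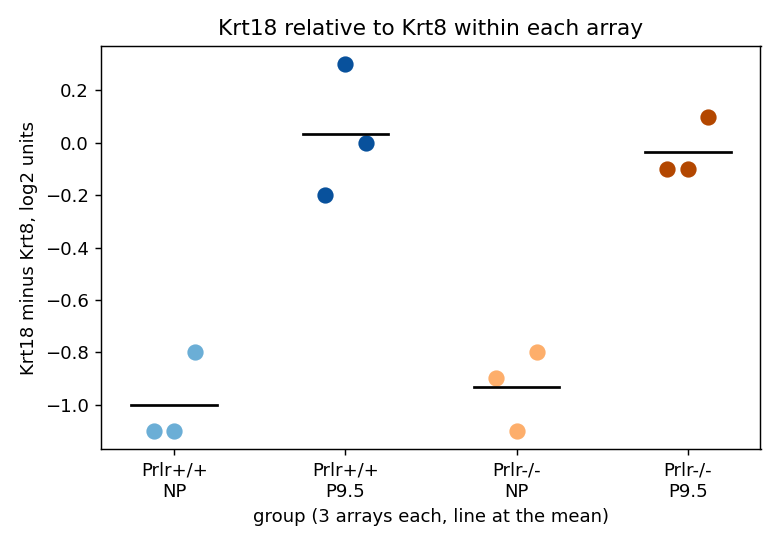
*Krt18* minus *Krt8* (log2 units, vertical axis) in each of the 12 arrays, by group, with a line at the mean of 3 arrays. The NP arrays lie between -1.1 and -0.8 and the P9.5 arrays between -0.2 and 0.3 over both genotypes.

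*Krt19*, the smallest type I keratin and a common duct stain, showed no called difference. It measured 5.6, 5.1 and 5.3 in *Prlr*+/+ NP arrays and 5.2, 5.1 and 5.3 at P9.5, and 5.9, 5.6 and 5.5 in *Prlr*-/- NP arrays and 5.4, 5.6 and 5.2 at P9.5. The groups overlapped in both genotypes. The pregnancy difference was -0.13 (interval -0.47 to 0.20) in *Prlr*+/+ and -0.27 (interval -0.60 to 0.07) in *Prlr*-/- islets. Leaving out the low-*Xist* array moved the former to -0.08. The former interval did not reach the minimum fold change, and the latter just reached it.

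*Tff2* had the largest difference between group means of the 8 genes, 1.27, and also the largest spread within groups. It measured 7.7, 8.0 and 7.8 in *Prlr*+/+ NP arrays and 6.8, 6.7 and 7.9 at P9.5. The *Prlr*-/- arrays read 9.1, 7.9 and 8.0 in NP arrays and 8.1, 6.7 and 6.4 at P9.5. One P9.5 array of each genotype (7.9 and 8.1) lay among the NP values while the other two lay at 6.4 to 6.8. The difference was -0.70 (SE 0.452, interval -1.69 to 0.29, adjusted p = 0.293) in *Prlr*+/+ islets and -1.27 (SE 0.452, interval -2.26 to -0.28, adjusted p = 0.0494) in *Prlr*-/- islets. The call in *Prlr*-/- islets held when the highest P9.5 array of that genotype (8.1) was left out, at -1.78, and when the highest *Prlr*+/+ P9.5 array (7.9) was left out. It was lost when any of the other 10 arrays was left out. The estimate was -0.88 without the NP array at 9.1 and -0.93 without the P9.5 array at 6.4. Leaving out the low-*Xist* array kept it at -1.27 with an adjusted p of 0.0552, and moved the *Prlr*+/+ difference to -0.48 (adjusted p = 0.581).

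Acinar markers moved with *Tff2*. Their level in an array was taken as the log2 of the summed signal of the 27 measured genes of a list of 32, among the most abundant of which were the digestive enzyme genes *Ctrb1* (chymotrypsinogen) and *Cpa1* (carboxypeptidase). It ranged from 15.14 to 15.71 in *Prlr*+/+ NP arrays, 14.39 to 15.58 in *Prlr*+/+ P9.5, 15.50 to 16.42 in *Prlr*-/- NP and 13.88 to 15.54 in *Prlr*-/- P9.5 arrays. The array with the highest acinar level (16.42) had the highest *Tff2* (9.1), and the array with the lowest (13.88) had the lowest *Tff2* (6.4). The 4 arrays with *Tff2* at 6.4 to 6.8 were the 4 with the lowest acinar level, at 14.70 or below. The P9.5 arrays with *Tff2* at 7.9 and 8.1 had acinar levels of 15.58 and 15.54, within the range of the NP arrays. *Cpa1* measured 13.0, 12.3 and 12.7 in *Prlr*-/- NP arrays and 12.3, 11.7 and 10.9 at P9.5. In the pregnancy comparison 16 of the 27 markers were called lower and 1 higher in *Prlr*-/- islets, with a median change of -1.27. In *Prlr*+/+ islets 0 were called lower and 1 higher, with a median of -0.53. Without the low-*Xist* array 17 were called lower in *Prlr*-/- islets, and the median in *Prlr*+/+ islets was -0.30. The 1 called higher was in both genotypes *Bhlha15*, a transcription factor of secretory cells. Over all probe sets 7.09% were called lower in *Prlr*-/- and 4.21% in *Prlr*+/+ islets. The part of acinar RNA in the *Tff2* values was not tested.

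**Figure D3:**
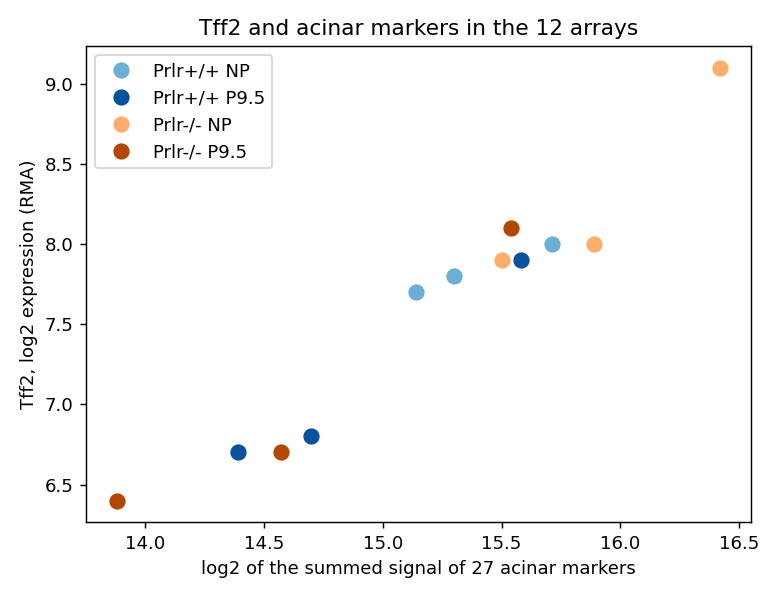
*Tff2* (log2 expression, vertical axis) against the log2 of the summed signal of 27 acinar markers (horizontal axis), 1 point for each of the 12 arrays, coloured by group. The 4 arrays with *Tff2* at or below 6.8 are those with the lowest acinar level, and both P9.5 groups have 1 array among the NP arrays.

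The gene-centred profile of *Tff2* over the 12 arrays was nearest to those of *Pla2g1b*, *Ctrc* and *Prss2* among 19937 genes, with root mean square differences of 0.16, 0.18 and 0.19 on the log2 scale. All 3 are on the acinar list and encode secreted digestive enzymes or their precursors. By the same measure *Muc1* was nearest to *Ccr7* (0.13), *Tmem91* (0.13) and *Ssxb2* (0.14), and *Krt7* to *Sec14l1* (0.09), *Slc43a2* (0.10) and *Trp53inp2* (0.10). None of these 6 is on the acinar list.

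*Muc1* was lower at P9.5 in every array of both genotypes. It measured 5.8, 6.0 and 5.9 in *Prlr*+/+ NP arrays and 5.3, 5.5 and 5.6 at P9.5. The *Prlr*-/- arrays read 6.4, 6.1 and 5.9 in NP arrays and 5.3, 5.4 and 5.0 at P9.5. The difference was -0.43 (SE 0.146, interval -0.75 to -0.11, adjusted p = 0.0534) in *Prlr*+/+ islets, short of a call. In *Prlr*-/- islets it was -0.90 (SE 0.146, interval -1.22 to -0.58, adjusted p = 0.00104), and it was called with any 1 array left out, at -1.02 to -0.77. The change in *Prlr*-/- minus that in *Prlr*+/+ islets was -0.47 (interval -0.92 to -0.02) and was not called (adjusted p = 0.487). Without *Prlr*+/+ P9.5 replicate 2 the *Prlr*+/+ difference was -0.45 (adjusted p = 0.106) and the interaction -0.45 (adjusted p = 0.486). The acinar levels above moved in the same direction as *Muc1*, and their part in it was not tested. The *Muc1* signal was modest, with a mean of 5.68 over the 12 arrays, and 47.7% of all probe sets were dimmer. How far low signal shaped its change was not tested.

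*Sox9* and *Cftr*, both defining genes of duct cells, had small differences. *Sox9* measured 6.1, 6.3 and 6.2 in *Prlr*+/+ NP arrays and 6.1, 6.0 and 5.9 at P9.5, and 6.5, 6.3 and 6.0 in *Prlr*-/- NP arrays and 6.0 in each P9.5 array. Its groups touched in both genotypes, with differences of -0.20 (interval -0.47 to 0.07) and -0.27 (interval -0.53 to 0.00). *Cftr* measured 4.4, 4.2 and 4.3 in *Prlr*+/+ NP arrays and 4.0, 4.1 and 4.1 at P9.5, which did not overlap, and 4.4, 4.4 and 4.6 in *Prlr*-/- NP arrays and 4.2, 4.4 and 4.2 at P9.5, which shared 4.4. Its differences were -0.23 (interval -0.45 to -0.02) and -0.20 (interval -0.42 to 0.02), with adjusted p-values of 0.113 and 0.137. Without the low-*Xist* array the *Prlr*+/+ differences were -0.20 for *Sox9* and -0.25 for *Cftr*, neither called. The *Cftr* values overlapped those of the Y-linked probe sets (3.1 to 4.6), so a larger relative change in *Cftr* RNA could not be seen at this signal.

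**Figure D4:**
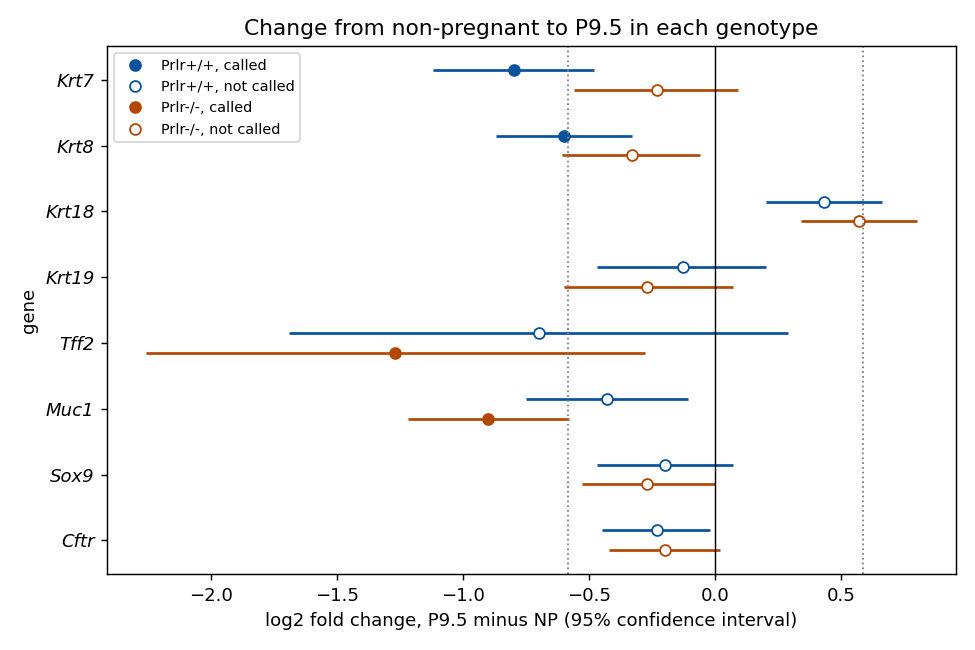
Log2 fold change from NP to P9.5 (horizontal axis) of the 8 genes in *Prlr*+/+ (blue) and *Prlr*-/- (orange) islets, with 95% confidence intervals. Filled points were called, dotted lines mark the minimum fold change of 1.5; *Krt7* and *Krt8* were called in *Prlr*+/+ islets, *Tff2* and *Muc1* in *Prlr*-/- islets, and *Krt18* lies right of 0 in both.

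Between the genotypes no member was called. In NP islets the log2 difference of *Prlr*-/- against *Prlr*+/+ ranged from -0.20 to 0.50 over the 8 genes (smallest adjusted p = 0.404, for *Krt19* at 0.33). At P9.5 it ranged from -0.23 to 0.37 (smallest adjusted p = 0.818, for *Krt7*). Each comparison had 1 member with an unadjusted p under 0.05 (*Krt19* and *Krt7*). Of all probe sets, 0.00845% were called lower and 0.0929% higher in NP islets, and 0.206% lower and 0.0253% higher at P9.5. The groups did not overlap for 0 members in NP islets (5.22% of probe sets lower and 6.47% higher did not) and for 1 member, *Cftr*, higher at P9.5 (3.16% higher, 2.91% lower). For the interaction 0 members were called, 2 (*Krt7* and *Muc1*) had an unadjusted p under 0.05, and 0.0788% of all probe sets were called lower and 0 higher. Calls in one genotype only therefore do not show that the genotypes differed. The intervals of the genotype differences reached from -0.52 to 1.49 in NP islets and from -1.06 to 0.92 at P9.5, *Tff2* giving the widest.

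Among 17 other keratins, 0 were called in either genotype. Of all probe sets, 4.21% were called lower and 5.73% higher in *Prlr*+/+ islets, and 7.09% and 7.44% in *Prlr*-/- islets. Their changes lay between -0.33 and 0.20 in *Prlr*+/+ islets (median -0.07) and between -0.47 and 0.20 in *Prlr*-/- islets (median -0.20). The lowest was *Krt17*, a keratin of basal and injured epithelium, at -0.47 in *Prlr*-/- islets (adjusted p = 0.0137, under the minimum fold change) and -0.13 in *Prlr*+/+ islets. *Krt14*, *Krt15* and *Krt6a* stood at -0.27, -0.37 and -0.37 in *Prlr*-/- islets, none past the p threshold. *Krt13*, a keratin of stratified mucosa, was at -0.33 with an adjusted p of 0.0457, under the minimum fold change. The changes of 0.43 and 0.57 of *Krt18* lay above all of these.

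Genes of desmosomes, the junctions to which keratin filaments are tied, gave 1 call in each genotype among 9 measured. Beside these stood 4.21% of all probe sets called lower in *Prlr*+/+ and 7.44% called higher in *Prlr*-/- islets. *Jup* (plakoglobin) measured 8.4, 8.5 and 8.3 in *Prlr*+/+ NP arrays and 7.6, 7.9 and 7.4 at P9.5, a fall without overlap of -0.77 (SE 0.126, adjusted p = 0.00192). Its difference in *Prlr*-/- islets was -0.20. *Dsp* (desmoplakin) was at -0.50 in *Prlr*+/+ islets (adjusted p = 0.0107, under the minimum fold change) and -0.17 in *Prlr*-/- islets. Without the low-*Xist* array *Dsp* was called lower in *Prlr*+/+ islets at -0.60 (adjusted p = 0.0094), as it was after quantile normalization, and *Jup* was at -0.90. *Dsc2*, a desmosomal cadherin, was called higher in *Prlr*-/- islets at 0.60 (adjusted p = 0.00491) and stood at 0.40 in *Prlr*+/+ islets. That call was lost, at 0.50 to 0.55, without *Prlr*-/- NP replicate 1, P9.5 replicate 1 or P9.5 replicate 3. The median of the 9 was -0.20 in both genotypes. For the interaction 0 of the 9 were called (*Jup* 0.57, adjusted p = 0.335), beside 0.0788% of all probe sets called lower and 0 higher. A difference between the genotypes in this response was therefore not shown.

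Other mucin, trefoil and mucosal genes were called lower in *Prlr*-/- islets for 5 of 17 measured, and for 0 of 17 in *Prlr*+/+ islets. Over all probe sets the shares called lower were 7.09% and 4.21%. For the interaction 0 of the 17 were called, so a difference between the genotypes in this response was not shown. The secreted gel-forming mucins *Muc5ac* (-0.77, adjusted p = 7.84e-04), *Muc2* (-0.67, adjusted p = 0.00397), *Muc5b* (-0.60, adjusted p = 0.00285) and *Muc6* (-0.60, adjusted p = 0.0055) were among the 5. The fifth was *Lcn2*, an iron-carrier-binding protein of mucosal defence (-0.63, adjusted p = 0.0276). In *Prlr*+/+ islets the same genes stood at -0.27, -0.27, -0.17, -0.30 and 0.07. *Muc5ac* measured 6.1, 5.8 and 6.1 in *Prlr*-/- NP arrays and 5.2, 5.4 and 5.1 at P9.5, against 5.5, 5.7 and 5.5 and then 5.3, 5.2 and 5.4 in *Prlr*+/+ islets. The 2 *Prlr*-/- groups of *Muc5ac* did not overlap. *Prlr*-/- against *Prlr*+/+, *Muc5ac* stood at 0.43 in NP islets (adjusted p = 0.196, not called) and at -0.07 at P9.5. The other trefoil genes *Tff1* and *Tff3* stood at -0.40 and -0.50 in *Prlr*-/- islets and at -0.27 and -0.40 in *Prlr*+/+ islets, not called. The list median was -0.43 in *Prlr*-/- and -0.27 in *Prlr*+/+ islets. For *Prlr*-/- against *Prlr*+/+ the list median was 0.17 in NP islets and -0.03 at P9.5. Of the 5 calls only *Muc5ac* was left when arrays were centred on their medians or normalized again by quantiles. *Muc5ac* was called with any 1 array left out, whereas each of the other 4 was lost without 1 or more of the *Prlr*-/- arrays. *Muc2* was lost without NP replicate 1 or P9.5 replicate 3, and *Muc5b* without these or NP replicate 3. *Muc6* was lost without NP replicate 1, NP replicate 2 or P9.5 replicate 3, and *Lcn2* without any of these or P9.5 replicate 1. Probe sets of low signal had a lower median change than the others. The median change of the dimmest 40% was -0.13 in *Prlr*-/- and -0.10 in *Prlr*+/+ islets, against 0.03 and 0.00 in the other 60%. *Muc2* and *Muc5b* were among the dimmest 40%, and *Muc5ac*, *Muc6* and *Lcn2* were not. The part of low signal in these changes was not tested.

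**Figure D5:**
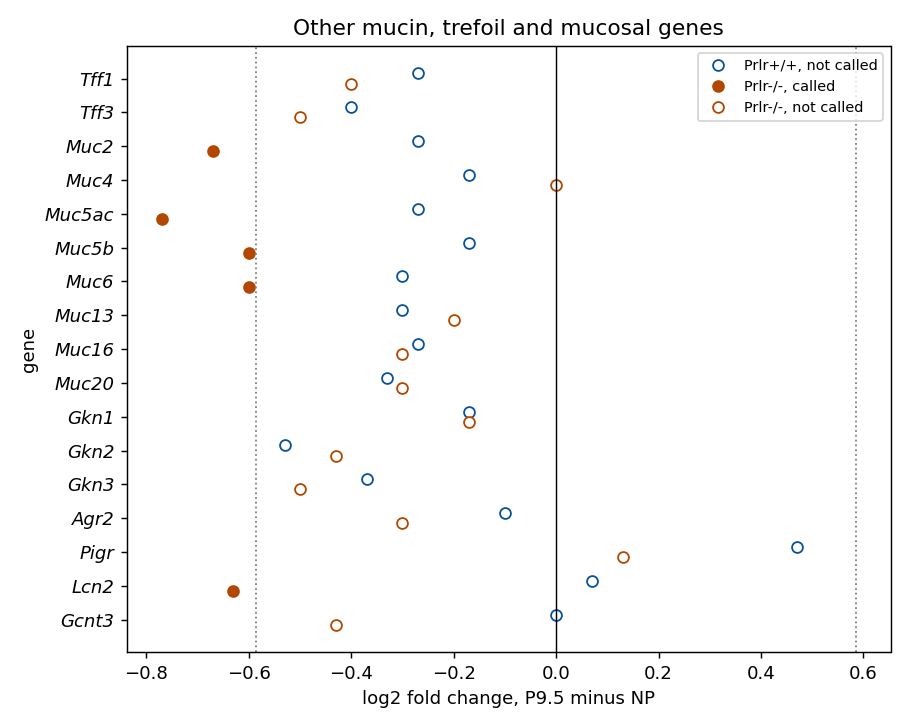
Log2 fold change from NP to P9.5 (horizontal axis) of 17 other mucin, trefoil and mucosal genes in *Prlr*+/+ (blue) and *Prlr*-/- (orange) islets. Filled points were called and dotted lines mark the minimum fold change; the 5 called genes are all lower in *Prlr*-/- islets, from -0.77 to -0.60.

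Other duct and secretory epithelium genes did not share a direction. Of 24 measured, 0 were called in *Prlr*+/+ islets, and 2 were called lower and 2 higher in *Prlr*-/- islets. The shares over all probe sets in *Prlr*-/- islets were 7.09% lower and 7.44% higher, so these counts do not set the list apart. The transcription factor gene *Glis3* (-0.80, adjusted p = 0.00724) and the sodium-proton exchanger gene *Slc9a3* (-0.67, adjusted p = 0.00188) were lower. The tetraspanin gene *Tspan8* (1.00, adjusted p = 0.0073) and *Prom1*, which encodes an apical membrane protein (0.67, adjusted p = 0.00173), were higher. *Tspan8* measured 7.7, 7.4 and 7.1 in *Prlr*-/- NP arrays and 8.5, 8.3 and 8.4 at P9.5. In *Prlr*+/+ islets the 4 genes stood at -0.50, -0.13, 0.17 and 0.07. *Slc9a3* was not called when arrays were centred on their medians or normalized again by quantiles, and the other 3 were. Median centring added *Epcam*, an epithelial adhesion gene, as higher in *Prlr*-/- islets, and quantile normalization added *Glis3* as lower in *Prlr*+/+ islets. *Slc9a3* was also lost without *Prlr*-/- NP replicate 3 or P9.5 replicate 1 (-0.58 each), and *Prom1* without *Prlr*-/- NP replicate 2 (0.57). *Glis3* was called lower in *Prlr*+/+ islets when NP replicate 1 of that genotype was left out (-0.73). The list medians were -0.15 in *Prlr*+/+ and -0.08 in *Prlr*-/- islets. For the interaction 0 of the 24 were called, so a difference between the genotypes in these genes was not shown.

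Of 9 Notch pathway genes, which act in duct development, 1 was called lower in *Prlr*+/+ and 2 in *Prlr*-/- islets. Among all probe sets 4.21% and 7.09% were called lower. The ligand gene *Jag2* was called in both, at -0.60 (adjusted p = 0.0237) and -0.67 (adjusted p = 0.0102). The receptor gene *Notch1* was at -0.53 (adjusted p = 0.00734, under the minimum fold change) in *Prlr*+/+ islets and was called at -0.60 (adjusted p = 0.00265) in *Prlr*-/- islets. None of these 3 calls was left when arrays were centred on their medians. The *Jag2* call in *Prlr*+/+ islets was lost when any array of that genotype other than P9.5 replicate 2 was left out (-0.60 to -0.55), and the one in *Prlr*-/- islets without NP replicate 2 (-0.50). The *Notch1* call was lost without *Prlr*-/- NP replicate 2 or 3 or P9.5 replicate 1 or 2, at -0.58 to -0.57. In *Prlr*+/+ islets *Notch1* was called without NP replicate 1 or P9.5 replicate 3. *Rbpj*, which encodes the DNA-binding factor of the pathway, was higher at P9.5 without overlap in both genotypes, at 0.47 (adjusted p = 0.0067) and 0.40 (adjusted p = 0.01), under the minimum fold change.

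*Spp1* was not measured, but all 7 genes for osteopontin receptors on the list were. *Cd44*, a receptor for osteopontin and hyaluronan, measured 6.6, 6.5 and 6.5 in *Prlr*-/- NP arrays and 7.3, 7.3 and 7.6 at P9.5, a rise of 0.87 (SE 0.108, adjusted p = 2.46e-04). In *Prlr*+/+ islets it measured 6.6, 6.8 and 6.8 in NP arrays and 6.8, 6.7 and 6.6 at P9.5 (-0.03). The *Prlr*-/- P9.5 arrays lay above all others. At P9.5 *Cd44* was called higher in *Prlr*-/- than in *Prlr*+/+ islets (0.70, adjusted p = 0.021), a call that was lost without the low-*Xist* array (0.70, adjusted p = 0.0902), while the interaction of 0.90 was not called (adjusted p = 0.0666). The integrin subunit genes *Itgb1*, *Itga5* and *Itgb3* stood at 0.40, -0.47 and -0.13 in *Prlr*-/- islets, and no receptor gene other than *Cd44* was called. Over all probe sets 7.44% were called higher at P9.5 in *Prlr*-/- islets. Between the genotypes at P9.5, 0.0253% were called higher in *Prlr*-/- islets.

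Markers of other cells were also compared. The summed level of 9 measured beta cell markers was 14.41 to 14.61 in NP and 14.64 to 14.71 in P9.5 arrays. Beside the pathway lists, 2 beta, 1 stromal, 1 immune and 2 endothelial markers were called lower in *Prlr*+/+ islets at P9.5, and 1 beta marker was called higher there. In *Prlr*-/- islets 1 marker each of beta, immune and endothelial cells was called higher and 0 lower. The shares over all probe sets were 4.21% lower and 5.73% higher in *Prlr*+/+, and 7.09% and 7.44% in *Prlr*-/- islets. Of the 5 measured mesothelial markers, which also carry keratins, 0 were called in either genotype, and their summed level was 7.78 to 8.43 over the 12 arrays.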

How the data were processed

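Total RNA of isolated islets was hybridised to Affymetrix MoGene_1.0_ST arrays, 12 in all. Per the labels and methods, the authors made 1 log2 value per probe set by robust multichip analysis (background correction, quantile normalization, summary over probes) in aroma.affymetrix, and the deposited log2 values are rounded to 0.1. Raw scans and scan batches were not used here, and the build behind the probe sets is not given in the sources used here. Precision is limited by the number of arrays. Of 35511 probe sets, 21789 carried 1 symbol in the annotation, 1621 several and 12101 none; 21698 of the first were found in RefSeq by Entrez identifier.

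One linear model with 4 group means was fitted in limma 3.58.1 (R 4.3.3) with lmFit and eBayes, after the procedure was tested on simulated data. p-values were adjusted by Benjamini-Hochberg over all probe sets. All tests are two-sided, and they measure only the spread between these replicates; an exact permutation test of 3 arrays against 3 cannot go below 0.1. Replicate numbers were not treated as pairing the samples. The members, lists and tests were chosen with earlier results of these data known. Named were the members, the called genes and up to 4 with the largest change of each list, and the 3 nearest profiles of 3 members. *Krt13*, *Epcam*, *Tff1* and *Tff3* were chosen after their values were seen. Alternatives were other fits, filters, scalings, thresholds and single arrays left out.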

Additional observations from a re-analysis of the deposited data

How the results depend on the processing

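The 2 members called in *Prlr*+/+ islets became 1 (*Krt7*) with median centring and with array weights, and 0 with a minimum fold change of 2. The 2 called in *Prlr*-/- islets became 1 (*Muc1*) when only the compared groups were fitted, with the replicate number as a block, and with an intensity trend and robust prior, and 1 (*Tff2*) with a minimum fold change of 2. With any 1 array left out, 1 to 2 were called in each genotype. Median centring and array weights each kept 2 calls in *Prlr*-/- islets, but these were *Muc1* lower and *Krt18* higher. No setting run reversed a direction of a called member, and counts for the genotype comparisons, the interaction and falls in both genotypes were 0 to 0 with single arrays left out. Over 21 settings *Krt7* in *Prlr*+/+ and *Muc1* in *Prlr*-/- islets were each called in 20, *Krt8* in 14 and *Tff2* in 6. Median centring also raised the share of higher among all calls from 57.7% to 70.2% in *Prlr*+/+ islets and from 51.2% to 76.2% in *Prlr*-/- islets (53.8% and 54.4% after quantile normalization), and moved the median change of all probe sets from -0.07 to 0.10 in the latter.

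Of 18 pairs of arrays with the same replicate number, 7 had correlated deviations (r over 0.1). For 1 of the 12 arrays the best correlated array in every other group had its own number. Pairs with different numbers were not set beside these, so whether the numbers pair samples was not decided. *Cftr* was removed by a filter on the dimmest 40% of probe sets. The same filter removed *Muc2*, *Muc5b* and *Slc9a3* from the called genes of the pathway lists. The table holds neither background nor slide, so these were not varied. Low signal limits *Cftr*, whose values overlapped those of the Y-linked probe sets. *Krt19* and *Muc1* were of modest signal, with means of 5.40 and 5.68 and with 41% and 47.7% of probe sets dimmer.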
